A study of Homo sapiens with 18 samples.

Results

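The KANK genes encode 4 related proteins, KANK1 to KANK4, named for the KN motif and the ankyrin repeats that they carry. All 4 symbols were found in the expression table, 1 row each, among 19849 genes. KANK4 came into view because it rose strongly upon EMT in every line, so its values below are a description and carry no test. Its paralogs KANK1, KANK2 and KANK3 were taken by family name and were tested.

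The data come from 18 Affymetrix U133 Plus 2.0 arrays of RNA from 3 human non-small cell lung cancer lines, A549, HCC827 and NCI-H358, with 3 arrays of parental cells and 3 of their TGFβ-induced mesenchymal derivatives per line. The derivatives had been grown with TGFβ at 2 ng/ml, for 3 weeks by the labels and for a range of weeks that depended on the line by the study's methods. All groups shared the same serum-containing medium, and the TGFβ was withdrawn on the day before lysis, so the levels are those of mesenchymal cells no longer exposed to added ligand. The 3 samples of a group were prepared at the same time, so p-values measure only the spread among such samples. The labels' account of the cells was checked first. The epithelial cadherin CDH1 fell in all 3 lines, by 5.81, 2.95 and 3.94 on the log2 scale in A549, HCC827 and NCI-H358, and the mesenchymal filament gene VIM rose by 0.79, 2.03 and 2.31 (highest limma adjusted p of the 6 tests 0.000132). VIM was read by a dim probe set, with parental means of 5.58, 3.55 and 3.61. The array medians lay between 6.31 and 6.47 on the log2 scale, and 0 pairs of arrays held identical values. In such bulk RNA, fewer cells expressing a gene and less RNA per cell cannot be told apart.

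KANK proteins sit at the rim of focal adhesions, where the KN motif binds talin, the protein that activates integrins and ties them to actin. Other regions of the protein reach liprin-β1 and the kinesin KIF21A, and in this way bring cortical microtubule stabilising complexes (liprins, ELKS, LL5 proteins and CLASPs) to the adhesion. Microtubules captured there restrain GEF-H1, an activator of RhoA, and adhesions lose their microtubules when KANK proteins are missing. KANK1 was described as a candidate tumour suppressor of the kidney, KANK2 also binds nuclear receptor coactivators, KANK3 is known mainly from endothelium, and variants of KANK1, KANK2 and KANK4 have been linked to nephrotic syndrome.

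The start regions of 3 of the genes are shown first, because the 4 genes moved differently upon EMT. Each sequence below is the 250 bases before an annotated start, printed 5′ to 3′ on the gene's strand, from RefSeq on GRCh38.p14. Capitals mark every match, on either strand, to GTCT (the SMAD half-site), GGAATG (the TEAD core), TGANTCA (AP-1) or CACCTG (the E-box of ZEB and SNAIL factors), and no matches overlapped. KANK4 lies at chr1:62319435-62319684, KANK2 at chr19:11197546-11197795 and KANK3 at chr19:8343263-8343512, all on the minus strand.
KANK4: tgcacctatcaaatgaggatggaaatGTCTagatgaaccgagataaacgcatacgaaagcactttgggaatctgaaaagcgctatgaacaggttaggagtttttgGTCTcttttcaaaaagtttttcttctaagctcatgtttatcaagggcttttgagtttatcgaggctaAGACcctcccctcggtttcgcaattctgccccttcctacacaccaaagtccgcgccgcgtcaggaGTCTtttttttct
KANK2: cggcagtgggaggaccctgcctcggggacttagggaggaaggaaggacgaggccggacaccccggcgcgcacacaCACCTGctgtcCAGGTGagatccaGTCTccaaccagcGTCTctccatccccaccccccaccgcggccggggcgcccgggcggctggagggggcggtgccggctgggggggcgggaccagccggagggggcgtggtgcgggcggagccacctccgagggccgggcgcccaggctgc
KANK3: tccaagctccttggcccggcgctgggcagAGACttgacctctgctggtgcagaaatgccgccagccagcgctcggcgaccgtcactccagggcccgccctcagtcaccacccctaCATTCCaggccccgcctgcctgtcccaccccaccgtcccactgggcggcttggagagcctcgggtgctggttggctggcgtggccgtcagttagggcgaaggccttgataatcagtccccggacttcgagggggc

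The KANK4 window held 4 matches to GTCT and none to the other 3 motifs. Of 35116 windows of the same length, 77.5% held GTCT at least 1 time and 7.75% held it at least 4 times. The KANK2 window held 2 matches to GTCT and 2 to CACCTG, which 17.5% of windows held. The KANK3 window held 1 match to GTCT and 1 to GGAATG, which 11.9% of windows held. TGANTCA, found in 6.57% of windows, was in none of the 3. KANK1, on the plus strand of chromosome 9, has 4 annotated starts, and its windows are not printed because the array does not tell which start was used. They held GTCT 1, 0, 1 and 1 times, and the first of them also held GGAATG and CACCTG 1 time each. The share of G and C was 43.6% in the KANK4 window, 76.4% for KANK2 and 68% for KANK3, and 48.8%, 66.4%, 45.6% and 42% in the KANK1 windows. Of all windows, 19.4% were poorer in G and C than that of KANK4. Whether any of these letters is bound in these cells was not measured.

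KANK4 was read by probe set 229125_at. In A549 its log2 level was 5.22, 5.41 and 5.36 on the parental arrays and 9.98, 10.04 and 9.94 on the mesenchymal arrays. In HCC827 the parental arrays gave 3.43, 3.68 and 3.77 and the mesenchymal arrays 12.32, 12.47 and 12.57. In NCI-H358 the parental arrays gave 4.15, 3.89 and 3.94 and the mesenchymal arrays 6.92, 6.81 and 7.00. Every mesenchymal array of every line thus stood above every parental array of all 3 lines. In A549 the group means differed by 4.66 on the log2 scale (25.2-fold), in HCC827 by 8.83 and in NCI-H358 by 2.92. The parental means of HCC827 and NCI-H358 lay below 4.79, the mean level under which 25% of all genes lay. No detection calls were given, so whether the probe set was above background there is not known, and no fold is given for these lines. Whether it was above background in parental A549 (mean 5.33) is not known either. The 25.2-fold is thus a ratio of array readings, which may hold background.

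HCC827, the line with the lowest parental KANK4 level, had the highest mesenchymal level. The order of the group means ran from parental HCC827 (3.62 ± 0.177, SD, n = 3) through parental NCI-H358 (3.99 ± 0.134) and parental A549 (5.33 ± 0.0989) to mesenchymal NCI-H358 (6.91 ± 0.0990), mesenchymal A549 (9.99 ± 0.0496) and mesenchymal HCC827 (12.45 ± 0.124). No 2 neighbours in this order overlapped, although parental HCC827 and NCI-H358 were only 0.37 apart. Within an array, KANK4 moved from a mean percentile of 35.3 to 89.6 of all genes in A549, for HCC827 from 12.2 to 98.9 and from 15.9 to 56.5 in NCI-H358. The mesenchymal NCI-H358 reading was therefore near the middle of that line's readings, while in mesenchymal HCC827 almost all genes read lower. Each gene was read by its own probe set, so these ranks give no amount of RNA relative to other genes.

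Ranked by change among all 19849 genes, the KANK4 difference was number 1 in HCC827, next to the collagen gene COL3A1 (8.74 on the log2 scale). The gap between these genes was smaller than the SD of the parental KANK4 arrays (0.177), whose level is dim, so no order is read from it. It was number 45 in A549, between SCG5 (4.66) and SLAMF9 (4.61), and number 85 in NCI-H358, between PMEPA1, a known TGFβ target, and BEND6 (both 2.92). Genes that rose over 5-fold at a limma adjusted p below 1e-05, the study's thresholds, made up 1.17% of all genes in A549, 1.32% of them in HCC827 and 0.811% in NCI-H358, and 0.121% (24 genes) did so in all 3 lines. KANK4 was selected on this contrast, so its place among them is no separate result.

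**Figure D1:**
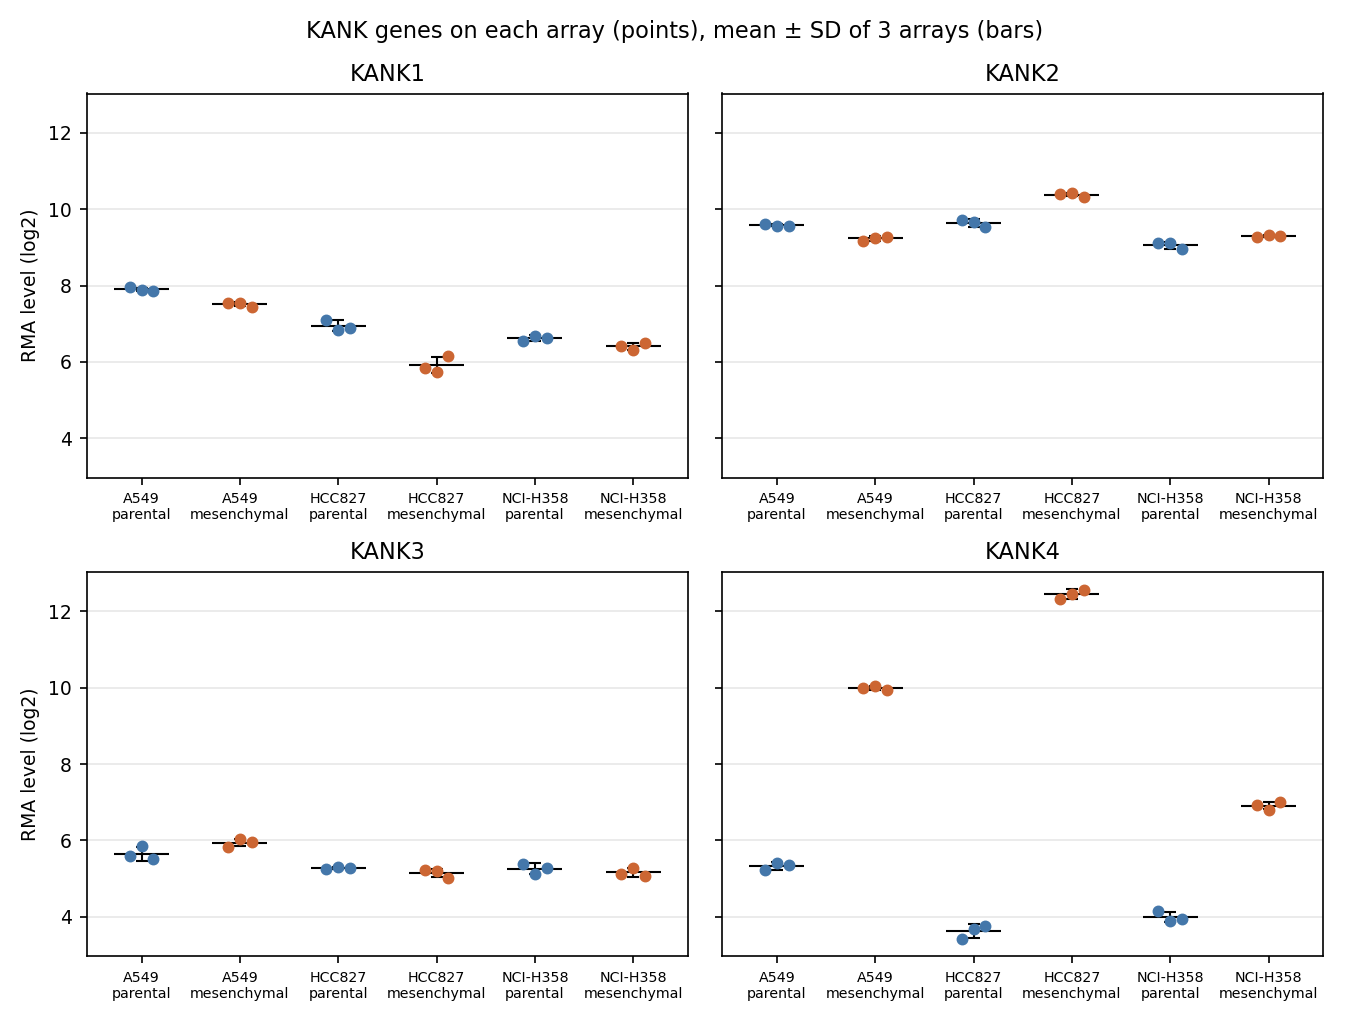
Log2 level of each KANK gene on each of the 18 arrays, with 1 panel per gene and parental (blue) beside mesenchymal (orange) arrays of each line. Points are arrays and bars the group mean ± SD (n = 3). The gap between colours is wide for KANK4 in every line, narrower for KANK1 and KANK2, and smallest for KANK3. Levels are not comparable between panels, since each gene was read by another probe set.

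Each paralog moved far less. Over the 6 groups, the group means of KANK1 spanned 1.99 on the log2 scale, those of KANK2 1.33 and those of KANK3 0.80, against 8.83 for KANK4 and a median span of 0.896 over all genes. In the 9 paralog comparisons of mesenchymal with parental cells, 3 levels rose and 3 fell at a limma adjusted p below 0.05, and the other 3 were not called. None passed the 5-fold rule (7 of the 9 had an unadjusted limma p below 0.05, 6 by the methods' t-test), and the farthest from 1 was the fall of KANK1 in HCC827, by 2.04-fold. At an adjusted p below 0.05, all 3 paralogs were called in A549, HCC827 had 2 of 3 and NCI-H358 had 1 of 3. The same rule called 43.4%, 45.8% and 41.4% of all genes in these lines, so with 3 paralogs these counts are not set apart from the background. The parental and mesenchymal arrays of 2, 3 and 2 of the 3 paralogs did not overlap in A549, HCC827 and NCI-H358, as was so for 52.4%, 51.2% and 51.6% of all genes. Falls past the 5-fold rule made up 0.736%, 1.63% and 1.36% of all genes.

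KANK1, read by probe set 213005_s_at, fell in A549 and HCC827. Its level in A549 was 7.95, 7.88 and 7.87 on the parental arrays and 7.53, 7.55 and 7.45 on the mesenchymal arrays. In HCC827 it was 7.11, 6.83 and 6.89 on the parental arrays and 5.85, 5.74 and 6.14 on the mesenchymal arrays. In NCI-H358 it was 6.54, 6.69 and 6.64 against 6.42, 6.31 and 6.49. The mesenchymal arrays were the lower in every line and no groups overlapped. The log2 change was -0.39 in A549 (95% confidence interval -0.59 to -0.19, limma adjusted p 0.00282) and -1.03 in HCC827 (-1.23 to -0.83, adjusted p 7.84e-08). In NCI-H358 it was -0.21 (-0.41 to -0.01) and was not called, at an adjusted p of 0.0860.

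KANK2, read by probe set 218418_s_at, rose in HCC827 and NCI-H358 and fell in A549. In A549 the levels were 9.61, 9.56 and 9.57 on the parental arrays and 9.16, 9.26 and 9.29 on the mesenchymal arrays. HCC827 gave 9.73, 9.66 and 9.53 for parental and 10.41, 10.42 and 10.33 for mesenchymal cells. NCI-H358 gave 9.10, 9.11 and 8.96 for parental and 9.28, 9.34 and 9.31 for mesenchymal cells. The groups were separate in each line, with the mesenchymal arrays lower in A549 and higher in the other two. The log2 change was -0.34 in A549 (-0.48 to -0.20, limma adjusted p 0.000359), while HCC827 had 0.74 (0.61 to 0.88, adjusted p 4.22e-08) and NCI-H358 0.25 (0.12 to 0.39, adjusted p 0.00427). As folds these were 1.27 lower, 1.68 higher and 1.19 higher.

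The readings of KANK3, from probe set 213715_s_at, changed little. With group means of 5.14 to 5.94 and no detection calls, it is not known whether KANK3 was above background. Its A549 levels were 5.59, 5.84 and 5.50 on the parental arrays and 5.84, 6.03 and 5.96 on the mesenchymal arrays, with 1 parental array level with the lowest mesenchymal one. The change of 0.30 in A549 (0.10 to 0.50) had a limma adjusted p of 0.0178, but the call was lost without parental replicate 1 (0.27, adjusted p 0.0628), parental replicate 3 (0.23, 0.0921) or mesenchymal replicate 2 (0.26, 0.0725), and by the methods' t-test (0.130). HCC827 gave 5.24, 5.29 and 5.29 for parental and 5.22, 5.19 and 5.02 for mesenchymal cells, a change of -0.13 (-0.34 to 0.07, adjusted p 0.288). NCI-H358 gave 5.38, 5.11 and 5.29 against 5.13, 5.28 and 5.07, which overlapped, and a change of -0.10 (-0.30 to 0.10, adjusted p 0.460). The HCC827 arrays did not overlap, by a narrow margin. No KANK3 change was detected in either line, and the intervals reach down to -0.34 and -0.30.

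**Figure D2:**
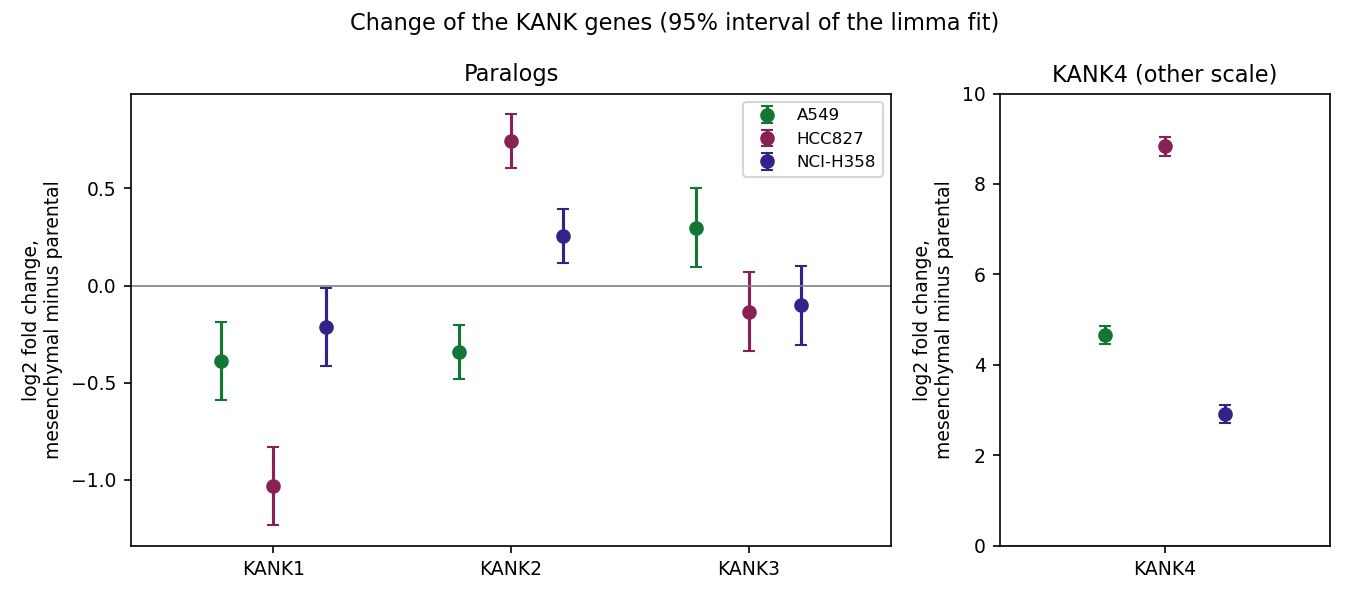
Log2 change of each KANK gene, mesenchymal minus parental, in each line, with 95% confidence intervals from the limma fit, and KANK4 in a panel with its own wider scale. KANK1 lies below 0 in every line, KANK2 below 0 in A549 and above 0 in HCC827 and NCI-H358, KANK3 close to 0, and KANK4 between 2.92 and 8.83. KANK4 was chosen for this contrast and its interval is no test.

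Set side by side, the KANK4 rise came with a different pattern of paralog changes in each line. HCC827, where KANK4 rose by 8.83, had both the deepest fall of KANK1 (-1.03) and the largest rise of KANK2 (0.74). In A549, with a KANK4 rise of 4.66, KANK1 and KANK2 both fell, by 0.39 and 0.34. In NCI-H358, with a rise of 2.92, KANK2 rose by 0.25 and KANK1 stood at -0.21 without a call. No paralog fell at an adjusted p below 0.05 in all 3 lines, and KANK2 moved in both directions. Each member was read by another probe set, so these arrays do not give the share of each member in the family's RNA, and a replacement of one KANK by another in amount of RNA could not be measured. Arrays also give no amount of protein.

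The paralog changes differed between lines. KANK2 changed by 1.09 more on the log2 scale in HCC827 than in A549 (limma adjusted p 5.02e-08) and by 0.60 more in NCI-H358 than in A549 (5.10e-05), and its rise was smaller in NCI-H358 than in HCC827 by -0.49 (0.000383). KANK1 fell further in HCC827 than in A549, by -0.64 (0.000841), and less in NCI-H358 than in HCC827, at 0.82 (0.000107). The KANK1 changes of NCI-H358 and A549 differed by 0.18, with an interval of -0.11 to 0.46 (0.329). KANK3 changed by -0.43 in HCC827 relative to A549 (0.0158) and by -0.40 in NCI-H358 relative to A549 (0.0243), the latter not called when any 1 of 6 of their 12 arrays was left out (-0.38 to -0.33), while HCC827 and NCI-H358 differed by 0.03 (-0.25 to 0.32, 0.889). Counted over the 3 paralogs, 3, 2 and 2 differences were called between HCC827 and A549, NCI-H358 and A549, and NCI-H358 and HCC827, where 42.2%, 42.8% and 37.9% of all genes were called. The matching KANK4 differences, given without a test, were 4.17, -1.74 and -5.91.

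Before TGFβ treatment the lines already differed. Parental A549 had the highest KANK1 level (7.90 ± 0.047, SD, n = 3), followed by parental HCC827 (6.94 ± 0.143) and NCI-H358 (6.62 ± 0.0753). HCC827 lay below A549 by -0.95 (limma adjusted p 1.24e-07), NCI-H358 below A549 by -1.28 (2.57e-09) and NCI-H358 below HCC827 by -0.32 (0.00842, or 0.0509 without HCC827 parental replicate 1). Mesenchymal HCC827 (5.91 ± 0.207) had the lowest KANK1 of the 6 groups, while mesenchymal A549 (7.51 ± 0.052) stayed above every parental array of the other lines. Parental KANK2 was lower in NCI-H358 (9.06 ± 0.0853) than in A549 (9.58 ± 0.0268) by -0.52 (1.84e-06) and than in HCC827 (9.64 ± 0.102) by -0.59 (6.08e-07). Parental A549 and HCC827 overlapped in KANK2 and differed by 0.06 (-0.08 to 0.20, 0.442). Along the KANK2 order, mesenchymal A549 (9.24 ± 0.0633) and NCI-H358 (9.31 ± 0.0259) also overlapped. Parental KANK3 was higher in A549 (5.64 ± 0.177) than in HCC827 (5.28 ± 0.0271), at -0.37 for HCC827 minus A549 (0.00309), and than in NCI-H358 (5.26 ± 0.138), at -0.38 (0.00218). HCC827 and NCI-H358 overlapped in KANK3 (-0.01, -0.22 to 0.19, 0.917). Whether KANK3 was above background in these parental cells is not known. Of the 3 paralogs, 2, 3 and 2 were called in the parental contrasts of HCC827 with A549, NCI-H358 with A549 and NCI-H358 with HCC827, against 57.1%, 57.9% and 52.6% of all genes.

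The partners that link KANK proteins to adhesions and microtubules formed a list of 12 genes. A549 had 7 that rose and 3 that fell, HCC827 8 and 1, and NCI-H358 5 and 3. Over all genes, 16.6%, 20.8% and 21.5% rose and 26.8%, 25% and 19.8% fell. The list's median log2 change was 0.35, 0.51 and 0.20 in the 3 lines, and that of all genes -0.02, 0.0051 and 0.015. Both talins rose in all 3 lines. TLN1, the talin of most tissues, rose by 0.35 (limma adjusted p 0.00104), 0.92 (1.67e-08) and 0.41 (0.000238) in the order A549, HCC827, NCI-H358. TLN2, its paralog, rose by 0.58 (0.0395), 2.23 (1.57e-07) and 2.16 (2.77e-07). PHLDB1 (LL5α), chosen after its values were seen, rose by 0.50, 1.70 and 0.87 (highest adjusted p 0.000252). Its paralog PHLDB2 (LL5β), also added after its values were seen, rose in A549 (0.85) and was not called in HCC827 (-0.22) or NCI-H358 (-0.10). TLN1, TLN2 and PHLDB1 are 25% of the list, where 4.31% of all genes rose in every line.

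PPFIBP1, encoding the liprin-β1 that binds KANK1, rose in A549 by 0.86 (limma adjusted p 6.17e-05) and in HCC827 by 0.81 (8.76e-05), and stood at 0.17 in NCI-H358 (0.388). Its paralog PPFIBP2 (liprin-β2) fell in all 3 lines, in A549 by 4.25, from 8.68 ± 0.0871 to 4.43 ± 0.206, for HCC827 by 1.16 and for NCI-H358 by 1.06 (highest adjusted p 8.15e-05). The A549 fall was the only one of the list past the 5-fold rule in any line. KIF21A, the kinesin held by the ankyrin repeats, rose by 0.35 in A549 (0.0256), where HCC827 had 0.26 (0.0942) and NCI-H358 0.24 (0.130). ARHGEF2, which encodes GEF-H1 and was chosen after its values were seen, fell in A549 (-0.69) and NCI-H358 (-1.42) and stood at -0.20 in HCC827 (0.0529).

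**Figure D3:**
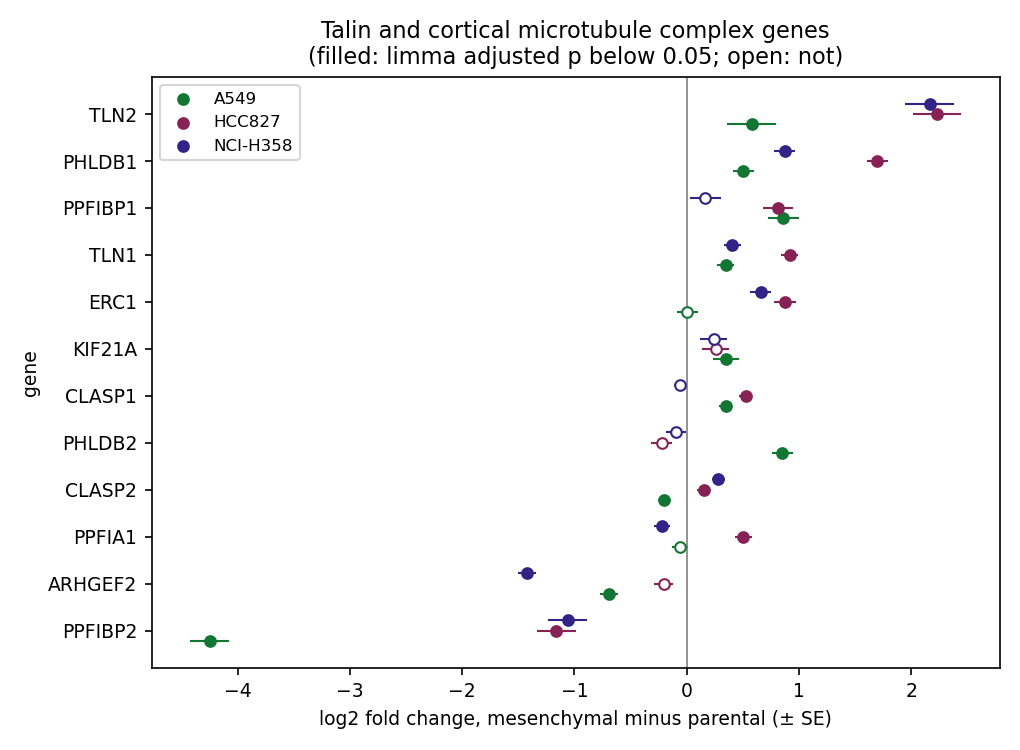
Log2 change, mesenchymal minus parental, of the 12 talin and cortical microtubule complex genes in each line, with bars of ± 1 standard error. Filled points had a limma adjusted p below 0.05. TLN1, TLN2 and PHLDB1 lie right of 0 and filled in all 3 lines, PPFIBP2 left of 0 and filled in all 3.

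Other reported KANK partners, 17 genes that include 14-3-3 proteins, nuclear receptor coactivators and regulators of actin, were counted in the same way. Of these, 4, 5 and 2 rose and 8, 7 and 7 fell in A549, HCC827 and NCI-H358, with medians of -0.10, -0.10 and -0.0059. Of all genes, 16.6%, 20.8% and 21.5% rose and 26.8%, 25% and 19.8% fell. CTNNB1 (β-catenin), for which a KANK1 interaction has been described, had the highest mean change of the list, 1.40 in A549, 0.73 for HCC827 and 0.17 for NCI-H358, where it was not called (limma adjusted p 0.256). BAIAP2, the actin regulator IRSp53, had the lowest mean change and fell in all 3 lines (-0.23, -0.62 and -0.75). SFN, the 14-3-3σ gene, chosen after its values were seen, also fell in all 3 (-0.42, -0.52 and -0.60). No other 14-3-3 gene of the list fell in every line. YWHAQ rose in HCC827 (0.15) and NCI-H358 (0.28), and YWHAB and YWHAZ had no call in any line. YWHAE fell in A549 and HCC827, YWHAH in A549 and NCI-H358, and YWHAG rose in A549 and fell in HCC827. BAIAP2 and SFN are 11.8% of the list, where 6.14% of all genes fell in every line.

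Among 20 core integrin adhesion genes, the structures on whose rim KANK proteins lie, 12, 14 and 10 rose and 4, 2 and 2 fell. The list's medians were 0.33, 0.49 and 0.30. In A549, HCC827 and NCI-H358, 16.6%, 20.8% and 21.5% of all genes rose and 26.8%, 25% and 19.8% fell. The integrin subunit gene ITGB3 had the highest mean change, at 2.39, 2.87 and 1.85, and TNS3 (tensin-3) the lowest, at -2.94, 0.49 and -0.27. The parental means of ITGB3 were dim, at 4.38, 4.35 and 4.71, below the level of 4.79 under which 25% of all genes lay. In all, 8 genes (40% of the list) rose in every line and 0 fell in every line, against 4.31% and 6.14% of all genes. LIMS1, among these 8, read 4.29 in parental and 4.71 in mesenchymal NCI-H358, also below 4.79. ITGB1, the common β subunit, chosen after its values were seen, was read by a dim probe set, with a mean log2 level of 4.44 over all arrays. Of 14 microtubule plus-end and motor genes, 4, 5 and 4 rose and 4, 6 and 4 fell, with medians of -0.07, -0.01 and -0.0078. Beside these counts stand the same shares of all genes, 16.6%, 20.8% and 21.5% up and 26.8%, 25% and 19.8% down. TUBA1A, an α-tubulin, had the highest mean change (0.42, 2.21 and 0.75) and CLIP1, a plus-end tracking protein, the lowest (-0.95, -0.47 and -0.71).

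Most of the epithelial and mesenchymal markers fixed for the check of the cells moved with their groups. Of 10 epithelial markers, 6 fell in A549 and 10 in each other line, and none rose. CLDN4, CLDN7, ESRP1 and GRHL2 had no call in A549, where parental ESRP1 and GRHL2 were already dim (3.53 and 3.83). CDH1, EPCAM, KRT19 and ELF3 passed the 5-fold rule in all 3 lines. Of 10 mesenchymal markers, 8, 9 and 9 rose and 1, 0 and 0 fell. The fall was that of ZEB2 in A549 (-0.46, limma adjusted p 0.00325). SPARC passed the 5-fold rule in all 3 lines (2.88, 5.20 and 3.97), and TWIST1 had the lowest mean change, with no call in any line. Of 10 markers of immune, endothelial and fibroblast cells, 2, 4 and 2 rose and 1, 0 and 0 fell. The shares of all genes were 16.6%, 20.8% and 21.5% for rises and 26.8%, 25% and 19.8% for falls. The mean log2 level over these 10 moved from 4.69–4.86 on the parental to 4.88–5.02 on the mesenchymal arrays in A549, while HCC827 went from 4.74–4.91 to 5.35–5.59 and NCI-H358 from 5.29–5.35 to 5.51–5.59. LUM, an extracellular matrix gene of fibroblasts, had the highest mean change (2.15, 3.93 and 2.15) and the monocyte marker CD14 the lowest (-1.36, 0.02 and -0.11). The leukocyte marker PTPRC and the endothelial marker CDH5, chosen after their values were seen, had no call in any line. Their mean levels over all arrays were 3.01 and 4.13, both below 4.79. The other leukocyte and endothelial markers of the list read above 4.79, namely CD3E (5.50), CD14 (4.99), PECAM1 (4.92), VWF (5.17) and CLDN5 (5.85). Whether these readings were above background is not known. Another endothelial marker, PECAM1, rose in HCC827 by 0.41 (limma adjusted p 0.0240). The other called rises were DCN in A549 (0.45) and HCC827 (0.56), and PDGFRB in HCC827 (0.88) and NCI-H358 (0.71). The part of these markers in the KANK changes was not tested.

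Genes whose 6 group means followed those of KANK4 most closely were found by the root mean square difference of the means after centring each gene on its own average. This is a description over 6 groups of 18 arrays. It was 1.04 for C4orf26 (ODAPH in RefSeq), 1.09 for MMP2, 1.11 for PPAPDC1A (PLPP4 in RefSeq), 1.20 for WNT5B and 1.38 for DACT1, where the median gene was at 3.23. A gene that is flat over the 6 groups would stand at 3.21, the root mean square of the centred KANK4 means. The median is therefore no measure of likeness. MMP2 encodes a gelatinase, PPAPDC1A a lipid phosphatase, WNT5B a WNT ligand and DACT1 a regulator of WNT signalling. The log2 change of WNT5B was 4.55, 5.14 and 2.61 in A549, HCC827 and NCI-H358, and that of C4orf26 4.72, 6.40 and 3.71. The other three had larger changes than KANK4 in A549 (5.07 to 6.43 against 4.66) and smaller ones in NCI-H358, at 0.36 for MMP2, 0.50 for PPAPDC1A and 0.57 for DACT1, against 2.92. All 5 changed less than KANK4 in HCC827, where the highest of them was PPAPDC1A at 7.10. For KANK1 the closest genes were NENF (0.112) and PRTG (0.130; median gene 0.707), and for KANK2 LOC401093 (MBNL1-AS1 in RefSeq; 0.0898) and HAUS8 (0.0952; median gene 0.527). There a flat gene would stand at 0.666 for KANK1 and 0.430 for KANK2.

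**Figure D4:**
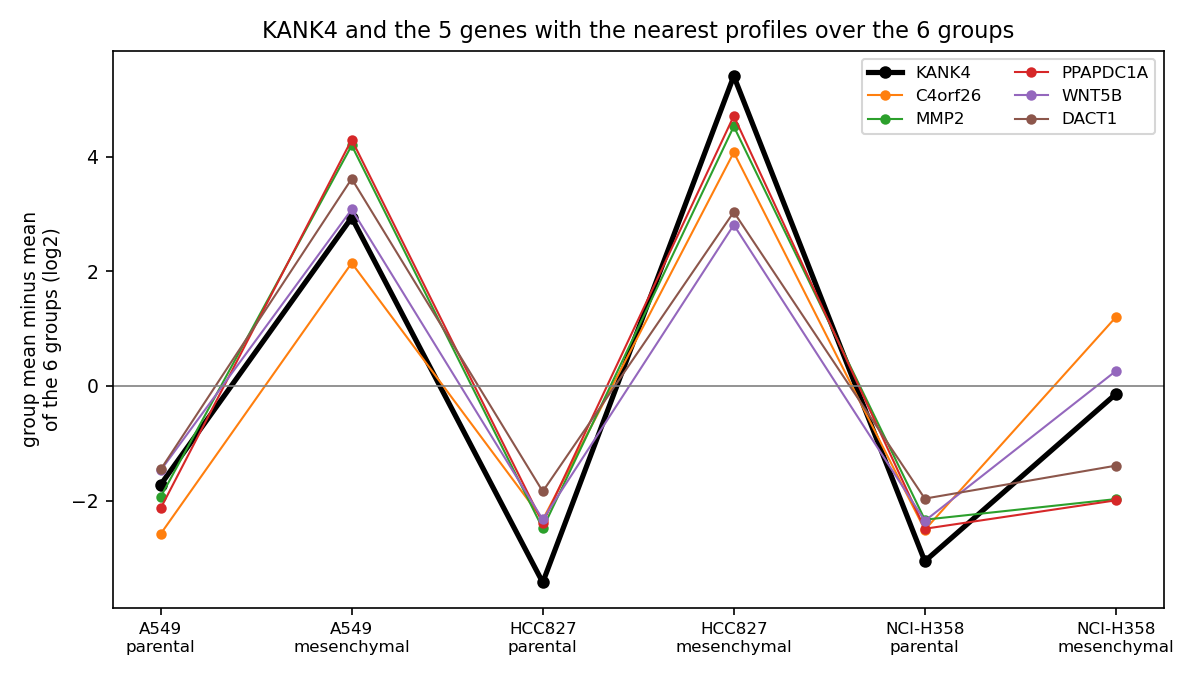
Mean log2 level of KANK4 (black) and of the 5 genes most like it in each of the 6 groups, each gene centred on its own mean. All 6 curves rise from parental to mesenchymal in A549 and HCC827, with the highest point in mesenchymal HCC827 for KANK4, and the genes spread apart in NCI-H358.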

How the data were processed

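Total RNA was hybridised to Affymetrix U133 Plus 2.0 arrays. The authors applied RMA, and the deposited table holds log2 levels of 19849 genes, each read by 1 probe set. How that probe set was chosen is not given in the sources used here, and some genes are read by dim probe sets. Probe sets ending in _s_at can match several transcripts, and their cross-hybridisation was not tested. Arrays have no sequencing depth, and their number limits the precision. Each of the 18 columns bears a sample's title, and 0 columns were left without a sample.

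Mesenchymal and parental cells were compared by lmFit and eBayes of limma 3.58.1 (R 4.3.3), with 6 groups and no covariate in a single fit, and Benjamini-Hochberg adjustment over all genes. A gene was called at an adjusted p below 0.05, and by the 5-fold rule at an adjusted p below 1e-05 and over 5-fold. Intervals are 95% and not adjusted. Fold changes are differences of mean log2 levels. With 3 against 3 arrays, a permutation test of 1 gene cannot go below an exact p of 0.1, so none was used. The members and all gene lists were chosen with earlier results of these data known. KANK4 was given no p.

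Named genes were the 4 members, TLN1, TLN2, KIF21A and PPFIBP1, genes of that list past the 5-fold rule, the highest and lowest mean change of each other list with genes past that rule in all 3 lines, CDH1 and VIM, chromosome neighbours, genes ranked beside KANK4, and the genes most like each member (2 for a paralog whose group means span over 1). Some genes that this rule names are not reported here. Of the gene IDs, 19326 were found in RefSeq. On simulated data with 19849 genes, changes of 1 on the log2 scale were called for 97% of changed genes in HCC827 and in NCI-H358. Those of 0.5 were called for 62% and 68%, and differences of 1 between the HCC827 and A549 changes for 83%. Only 100 genes were shifted by each amount, with normal noise of the parental spread. In the data 45.8% and 41.4% of all genes were called in HCC827 and NCI-H358, so the simulated rates do not give the sensitivity there. Alternatives were median centring, leaving out the dimmest 25% of genes, an intensity trend, separate fits, the methods' t-test (equal variance, named there for other measurements, limma for the arrays), over 2-fold in place of 5-fold and leaving out each array.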

Additional observations from a re-analysis of the deposited data

Results flagged for a closer look

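For 7 of the 9 paralog differences between lines, the change upon EMT differed by a limma contrast of the changes, with 3, 2 and 2 of 3 paralogs called for HCC827 against A549, NCI-H358 against A549 and NCI-H358 against HCC827, where 42.2%, 42.8% and 37.9% of all genes were called. The contrasts share arrays, so they are not independent of each other. KANK2 differed in every pair of lines, by 1.09 for HCC827 minus A549 (adjusted p 5.02e-08), 0.60 for NCI-H358 minus A549 (5.10e-05) and -0.49 for NCI-H358 minus HCC827 (0.000383). It fell in A549 and rose in the other lines. KANK1 differed by -0.64 for HCC827 minus A549 (0.000841) and by 0.82 for NCI-H358 minus HCC827 (0.000107). KANK3 differed by -0.43 for HCC827 minus A549 (0.0158) and by -0.40 for NCI-H358 minus A549 (0.0243).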

How the results depend on the processing

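Of 576 values recomputed for 36 results, 550 stayed the same. For a tested value this meant the same direction and side of the threshold, and for a count of genes, within 1.5 times. For a KANK4 change, which has no threshold, it meant the same direction and a shift below the larger SD of the groups compared. Under every alternative run, 27 results stayed the same, all KANK2 results and the KANK1 changes among them. By the methods' t-test 3 paralog calls were lost, KANK1 between parental NCI-H358 and HCC827 (-0.32, adjusted p 0.0593), KANK3 in A549 (0.30, 0.130) and KANK3 between parental NCI-H358 and A549 (-0.38, 0.0741). Leaving out 1 array gave -0.38 to -0.24 for the first of these and 0.23 to 0.40 for the second. It gave -0.50 to -0.33 for the KANK3 difference of change NCI-H358 minus A549, which lost its call without A549 parental replicate 1 or 3 (-0.37, -0.33), A549 mesenchymal replicate 2 (-0.36), NCI-H358 parental replicate 1 (-0.34) or NCI-H358 mesenchymal replicate 1 or 3 (-0.38, -0.35). Values that were never called changed sign, namely the KANK3 difference of change NCI-H358 minus HCC827 (-0.04 to 0.0935; -0.0281 without HCC827 mesenchymal replicate 3, -0.0425 without NCI-H358 parental replicate 2, -0.0299 without NCI-H358 mesenchymal replicate 2) and KANK3 between the parental cells of these lines (-0.0757 to 0.0604, the latter without NCI-H358 parental replicate 2). Of 63 genes in the 4 adhesion and microtubule lists, 46, 48 and 37 were called at an adjusted p below 0.05 with limma in A549, HCC827 and NCI-H358, and 43, 38 and 31 by the methods' t-test. Of all genes, limma called 43.4%, 45.8% and 41.4% in these lines. Of these lists, 4, 1 and 0 passed the 5-fold rule with limma in A549, HCC827 and NCI-H358, and 0 in each line by the methods' t-test. By that rule with limma, 1.17%, 1.32% and 0.811% of all genes rose and 0.736%, 1.63% and 1.36% fell. At an unadjusted p below 0.05 and over 5-fold either test gave 4, 1 and 0. Over 2-fold the limma counts were 11, 9 and 5. Leaving out 1 array gave 3 to 4, 1 to 2 (2 without any 1 HCC827 parental array) and 0 to 1 (1 without NCI-H358 parental replicate 1). Median centring shifted all changes by 0.068, 0.065 and 0.039 in the 3 lines. The cause of these changes was not tested. No paired analysis was possible because the labels give no replicate numbers that groups share.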

Other observations

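The genes beside the KANK genes on their chromosomes did not share 1 pattern. KANK4 lies between L1TD1 and USP1 on chromosome 1. L1TD1 was not called in any line (0.0091, 0.017 and 0.023 in A549, HCC827 and NCI-H358). It was dim in every group, with means from 3.62 to 3.66, so it may not have been detected. USP1, a deubiquitinase gene, had changes of -0.33 (limma adjusted p 0.00315), 0.92 (4.61e-08) and -0.10 (0.383). KANK3 lies on chromosome 19 between RPS28 (-0.32, 0.41 and -0.09, the last not called) and ANGPTL4, which inhibits lipoprotein lipase. ANGPTL4 rose in A549 by 3.38 (3.94e-15) and in HCC827 by 2.11 (1.57e-12), and fell by 0.35 in NCI-H358 (0.00245). KANK2 lies on the same chromosome between SPC24 (-0.86, 0.50 and -0.42, all called) and DOCK6 (-0.13, not called, then -0.63 and -0.57). KANK1 lies on chromosome 9 between DOCK8, which rose by 0.64 in A549 and was not called in the other lines, and DMRT1, which rose by 0.37 in HCC827 (0.0457) and was not called in the others. Both were dim there, with DOCK8 going from 3.08 to 3.72 in A549 and DMRT1 from 3.84 to 4.21 in HCC827. These means lay below 4.79, the mean level under which 25% of all genes lay.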
